A study of Mus musculus with 2 samples.

Results

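The inflammatory G protein coupled receptors examined here are Gpr84, Fpr1, Fpr2, Ptafr, Hcar2, C5ar1, C3ar1 and Ccrl2, that is 8 of the 19537 genes in the count matrices. They were listed by name, and were selected on their measured UMI levels in microglia of both genotypes, so those levels are given as a description with no test. Hcar2 stands in the matrices under its older symbol Niacr1. The study compared microglia, which are the brain's own macrophages, between PARK7/DJ-1 knock-out (KO) and wildtype (WT) mice. All mice had received LPS (lipopolysaccharide, from the outer membrane of bacteria) 24 h earlier to provoke systemic inflammation. CD11b+CD45int cells were sorted and run on Drop-seq, a droplet method that captures transcripts at their 3′ ends and tags each molecule with a unique molecular identifier (UMI). There was 1 library per genotype, which pooled 2 mice, and the libraries KO LPS and WT LPS are called KO and WT below.

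The KO group carried a gene-trap allele of Park7 in every cell of the body, on a line backcrossed to C57BL/6NCrl, and the WT group were wildtype littermates. By the study's text the mice were 3 to 4 months old and each pool joined 1 female and 1 male. No library of untreated mice was used here, so no level below says what LPS did. With 1 library per genotype, genotype cannot be told apart from library, preparation or pool. All intervals are 95% intervals of counting error only.

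These receptors span the membrane and, when a ligand binds outside, pass the signal to G proteins and arrestins inside. Gpr84 answers medium-chain fatty acids and is known to be induced in macrophages and microglia by inflammatory stimuli. Fpr1 and Fpr2 sense formylated peptides from bacteria and mitochondria, C5ar1 and C3ar1 bind the complement fragments C5a and C3a, and Ptafr binds platelet-activating factor. Hcar2 is the receptor for nicotinic acid and the ketone body beta-hydroxybutyrate, and Ccrl2 is an atypical receptor that binds chemerin without G protein signalling.

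The receptors lie on 7 chromosomes of the mouse genome (GRCm38.p6, RefSeq), and only Fpr1 and Fpr2 share one. Fpr1 (chromosome 17, 17876471 to 17883939) and Fpr2 (chromosome 17, 17887824 to 17893952) are transcribed away from each other with 3884 bases between them. None of the 8 overlaps another gene of that table. Promoter sequences, from 250 bases before to 50 bases after a start site, were at hand for 7 of the 8, not for Hcar2. Printed here, 5′ to 3′, are those of Gpr84, which had the most UMIs in WT (chr15:103310389-103310688, minus strand), of Ptafr, which differed in the opposite direction (chr4:132563817-132564116, plus strand), and of C3ar1, which had the most UMIs in KO (chr6:122856108-122856407, minus strand), in lower case with the AP-1 motif in capitals.
Gpr84: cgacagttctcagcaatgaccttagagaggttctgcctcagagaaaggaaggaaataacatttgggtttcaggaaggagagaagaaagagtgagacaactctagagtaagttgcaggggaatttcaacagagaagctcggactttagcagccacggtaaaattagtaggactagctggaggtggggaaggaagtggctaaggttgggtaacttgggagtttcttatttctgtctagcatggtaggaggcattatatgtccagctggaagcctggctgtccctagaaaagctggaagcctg
Ptafr: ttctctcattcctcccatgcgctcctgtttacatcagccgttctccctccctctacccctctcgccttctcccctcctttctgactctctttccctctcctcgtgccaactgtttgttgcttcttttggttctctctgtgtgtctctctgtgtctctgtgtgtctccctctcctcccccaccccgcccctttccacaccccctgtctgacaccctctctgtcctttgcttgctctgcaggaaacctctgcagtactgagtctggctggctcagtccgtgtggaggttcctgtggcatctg
C3ar1: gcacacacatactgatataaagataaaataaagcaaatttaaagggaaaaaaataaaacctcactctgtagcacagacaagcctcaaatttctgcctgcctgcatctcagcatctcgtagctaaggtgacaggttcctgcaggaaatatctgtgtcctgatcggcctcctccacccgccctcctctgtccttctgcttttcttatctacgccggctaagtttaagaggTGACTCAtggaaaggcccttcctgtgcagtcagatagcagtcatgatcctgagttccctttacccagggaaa

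Motifs of factors known from inflammatory and myeloid gene regulation were searched on both strands of these windows. The letters were GGGA, any 4 bases and CC for kappaB, TGANTCA for AP-1, GAAA, any 2 bases and GAAA for the interferon-stimulated response element, GAGGAAG for PU.1 and TTGCNNAA for C/EBP. Of the 32851 mouse promoters of this length in the table, 20.7% held the kappaB letters, 7.81% AP-1, 3.44% the interferon element, 13.6% PU.1 and 10.8% C/EBP. Among the receptors, C3ar1 held AP-1 at base 229 of its window, and the first start site of Ccrl2 held kappaB at bases 183 and 195. The windows of Gpr84, Fpr1, Fpr2, Ptafr and C5ar1 held none of these letters. The GC content of the printed windows was 47.0% in Gpr84, 56.3% in Ptafr and 46.0% in C3ar1.

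Cells were barcodes with at least 500 UMIs and at least 100 genes. There were 320 cells of KO with 381305 UMIs, a median of 963.5 per cell, and 1427 cells of WT with 1989011 UMIs, a median of 1065 per cell. No cell barcode was shared by the libraries. Park7, the targeted gene, had 1 UMI in KO cells and 323 in WT cells. All 10 microglia markers were present in both libraries, at a summed 29916 CPM in KO and 19008 CPM in WT, where CPM is UMIs per 1e6 UMIs of the cells. Among the 10 neutrophil markers in the matrices 9 were at 0 in KO and 4 in WT, and the list summed to 430.1 CPM in KO and 264 CPM in WT. Csf3r, which gave all of this in KO, was 2.23-fold higher there (1.84 to 2.68). S100a8 and S100a9, of the same list, had 0 UMIs in KO cells and 81 and 45 UMIs in WT cells. In WT they were at 40.7 CPM and 22.6 CPM in cells, below their 82.3 CPM and 114 CPM in barcodes with 100 UMIs or fewer. Ly6c2, which defines inflammatory monocytes, was at 0 in both, and the 8 monocyte markers summed to 26.2 CPM in KO and 18.1 CPM in WT. Border macrophage markers summed to 62.9 CPM in KO, with 6 of 7 at 0, and 46.3 CPM in WT, and markers of other brain cells to 1983 CPM and 48.8 CPM, of which Ttr, a choroid plexus transcript, gave 1862 CPM and 10.1 CPM.

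Together the 8 receptors made up 454 CPM in KO and 2104 CPM in WT, which is 4.64-fold lower in KO (3.98 to 5.43). Without Gpr84, the other 7 were 3.53-fold lower (2.98 to 4.20). All 8 had at least 20 UMIs over both libraries, and in KO alone Gpr84, Ptafr, C5ar1 and C3ar1 did. The level in KO was at most 0.5 times that in WT for 6 of the 8 receptors, and 17.1% of the 9085 genes with at least 20 UMIs were that low. It was at least 2-fold higher for 1, Ptafr, beside 12.9% of all genes. Ccrl2 lay between. The median log2 ratio of the genotypes, KO over WT, was -2.69 over the 8, or -1.99 with Fpr1 and Fpr2 at the bound that their 0 UMIs allow, against 0.03 over all genes tested. These counts belong to the contrast on which the receptors were chosen. Since Drop-seq counts 3′ ends, a UMI stands for 1 transcript whatever its length, but capture may differ between genes.

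**Figure D1:**
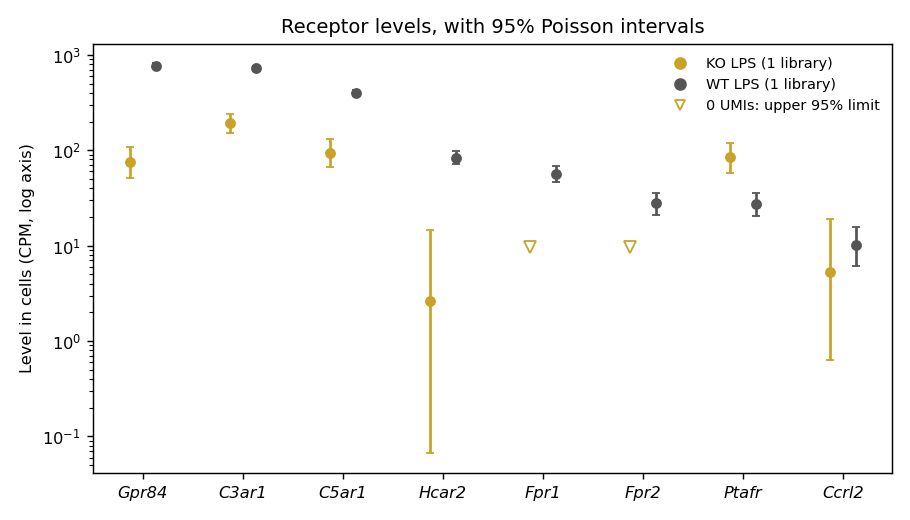
Level of each receptor in cells (y axis, CPM on a log axis) in KO and WT, 1 library each; points are levels, bars 95% Poisson intervals, and open triangles the upper 95% limit where no UMI was found. Gpr84, C3ar1 and C5ar1 were the 3 most abundant receptors in WT, and Ptafr was the receptor whose KO level lay above its WT level.

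Gpr84, the medium-chain fatty acid receptor, was at 76.1 CPM (50.9 to 109) in KO and 772 CPM (734 to 811) in WT, from 29 and 1535 UMIs. The level was 10.1-fold lower in KO (7.04 to 15.2), and the intervals did not overlap. In WT the transcript was spread over 651 cells, with at most 22 UMIs in a cell and 3.78% of its UMIs in its 3 richest cells. In KO it was found in 25 cells, with at most 3 UMIs in a cell. Gpr84 gave 36.7% of the UMIs of the 8 receptors in WT and 16.8% in KO.

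The complement receptors were the other abundant members. C3ar1, the receptor of C3a, was at 191 CPM (150 to 241) in KO and 727 CPM (690 to 766) in WT, from 73 and 1447 UMIs, a ratio of KO over WT of 0.263 (0.205 to 0.333). C5ar1, the receptor of C5a, was at 94.4 CPM (66.1 to 131) in KO and 400.2 CPM (373 to 429) in WT, from 36 and 796 UMIs, a ratio of 0.236 (0.164 to 0.329). The ratios of this pair of complement receptors overlapped in their intervals, and that of Gpr84, at 0.0985 (0.0658 to 0.142), lay below both.

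The formyl peptide receptors were found in WT cells and not in KO cells. Fpr1 had 0 UMIs in KO and 112 in WT, at 56.3 CPM (46.4 to 67.8) in 79 cells. Fpr2 had 0 UMIs in KO and 55 in WT, at 27.7 CPM (20.8 to 36.0) in 49 cells. Against a floor of 3 counts in the KO library, Fpr1 was at least 7.16-fold lower and Fpr2 at least 3.51-fold lower. Outside the called cells KO did hold 2 UMIs of Fpr1. Both genes are also known from neutrophils, whose transcripts S100a8 and S100a9 likewise had 0 UMIs in KO. In WT cells thinned to 500 UMIs, 1 of 31 cells with Fpr1 and 2 of 18 cells with Fpr2 held S100a8 or S100a9, beside 28 of all 1427 cells. Both transcripts were lower in WT cells than in barcodes with 100 UMIs or fewer. A UMI of S100a8 or S100a9 need not come from the cell itself. The part of neutrophil transcripts in the difference between the libraries was not tested. How reads that match both Fpr1 and Fpr2, which are related genes, were counted is not given in the sources used here, so the split between them is uncertain.

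Hcar2, the nicotinic acid receptor, had 1 UMI in KO and 166 UMIs in 143 cells of WT, at 2.62 CPM (0.0664 to 14.6) and 83.5 CPM (71.2 to 97.2). The ratio of KO over WT was 0.0314, with a wide interval of 0.000791 to 0.178. Ccrl2, the chemerin-binding receptor, had 2 UMIs in KO and 20 in WT, at 5.25 CPM and 10.1 CPM. Its ratio of 0.522 had an interval of 0.0591 to 2.15, so that no difference of Ccrl2 was detectable at this depth.

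Ptafr, the receptor of platelet-activating factor, stood apart in direction. It was at 83.9 CPM (57.4 to 118) in KO and 27.1 CPM (20.4 to 35.4) in WT, from 32 and 54 UMIs, which is 3.09-fold higher in KO (1.93 to 4.87). The UMIs came from 30 cells of KO and 52 cells of WT, with at most 2 in any cell. Ptafr thereby gave 18.5% of the UMIs of the 8 receptors in KO and 1.29% in WT. In KO its level in cells was 1.04 times (0.555 to 2.03) that in barcodes with 100 UMIs or fewer, which hold mostly free RNA.

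The order of the levels differed between the genotypes. In WT the levels of Gpr84 and C3ar1 overlapped in their intervals at the top, C5ar1 came next, and Hcar2, Fpr1 and then Fpr2 followed apart from each other. Fpr2 and Ptafr did not differ beyond counting error, and Ccrl2 was lowest. In KO C3ar1 was highest, C5ar1, Ptafr and Gpr84 overlapped below it, and Ccrl2, Hcar2, Fpr1 and Fpr2 were at or below 5.25 CPM.

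Free RNA released into the suspension is captured with every bead, and its level was read from barcodes with 100 UMIs or fewer. In WT cells, Gpr84 was 2.97 times (2.38 to 3.76) its level in that free RNA, Fpr1 2.96 times (1.32 to 8.25), Fpr2 4.37 times (1.15 to 36.9), Hcar2 2.03 times (1.15 to 3.89) and C5ar1 1.64 times (1.30 to 2.10). C3ar1 was 1.12 times (0.963 to 1.30) its free RNA level, an interval that held 1, as did those of Ptafr (1.71 times, 0.691 to 5.49) and Ccrl2 (3.17 times, 0.508 to 132). Against all barcodes not called as cells, where C3ar1 was at 636 CPM (590 to 686), its 727 CPM (690 to 766) in cells lay higher. In KO, Gpr84 was 3.78 times its free RNA level (1.33 to 14.8), and C5ar1 (1.25 times, 0.668 to 2.46) and C3ar1 (0.951 times, 0.638 to 1.44) had intervals that held 1. The free RNA of the libraries itself held 260 CPM of Gpr84 in WT and 20.1 CPM in KO.

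To compare shares of cells at equal depth, each cell was thinned at random to 500 UMIs. At least 1 of the 8 receptors was then found in 65 of 320 KO cells (20.3%, 16.0 to 25.1) and in 839 of 1427 WT cells (58.8%, 56.2 to 61.4), a difference of -38.5 percentage points (-43.5 to -33.0). Droplets of 500 UMIs drawn from free RNA alone would reach 17.8% in KO and 46.3% in WT. The KO share therefore held its free RNA share within its interval, while the WT share lay above its own. Without thinning the shares were 36.6% and 78.8%. Several receptors in 1 cell were rare in KO, where 4 cells held UMIs of 2 receptors and none held 3. At the floor of 3 counts, none of 320 cells allows a share of up to 0.938%, or 1.15% by the exact interval. In WT 218 cells held 2 receptors, 56 held 3 and 2 held more.

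Gpr84 was found in 2.81% of KO cells (1.29 to 5.27) and 26.7% of WT cells (24.4 to 29.1), above the free RNA shares of 1.00% and 12.2%. Before thinning these were 7.81% and 45.6%. C3ar1 was found in 10.3% of KO cells and 29.8% of WT cells, beside free RNA shares of 9.58% and 27.8%. These lay within both intervals (7.21 to 14.2 and 27.4 to 32.2), so that by share its cells were not told apart from droplets of free RNA alone. A cell holds free RNA as only a part of its UMIs, so these shares are upper bounds of background. The part of free RNA in the C3ar1 of cells was not tested. C5ar1 was found in 8 of 320 KO cells, an interval of 1.09 to 4.87% that held its free RNA share of 3.70%, and in 16.5% of WT cells (14.6 to 18.5), above 11.5%. Ptafr was found in 5.63% of KO cells (3.37 to 8.74), with 3.95% from free RNA, and in 1.68% of WT cells (1.08 to 2.49), with 0.789% from free RNA.

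The rarer receptors were counted in few cells at this depth. Hcar2 was in 1 KO cell and 53 WT cells (3.71%, with 2.04% from free RNA). Fpr1 was in 0 KO cells and 31 WT cells (2.17%, with 0.946% from free RNA), and Fpr2 in 0 and 18 (1.26%, with 0.316% from free RNA). Ccrl2 was in 0 and 8 cells. A count of 0 of 320 cells allows a share of up to 0.938%, so that for Ccrl2, at 0.561% in WT, no difference in share was detectable.

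**Figure D2:**
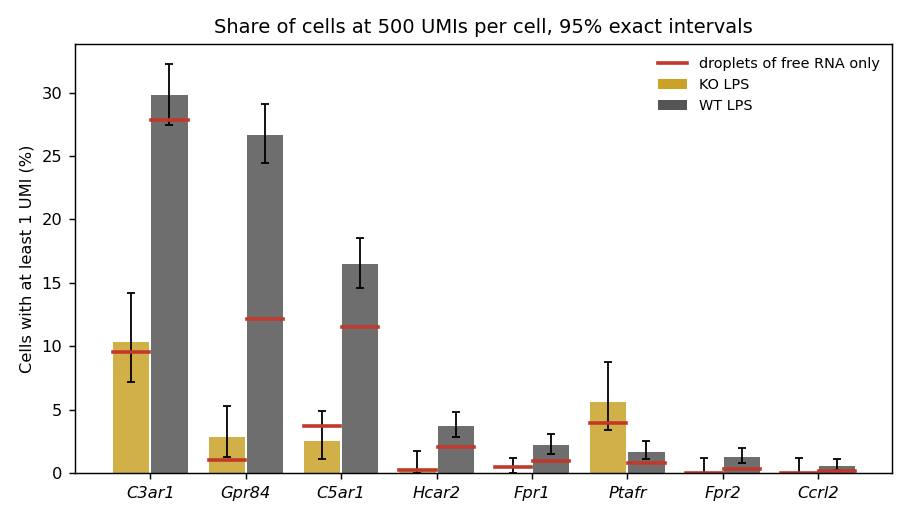
Share of cells with at least 1 UMI of each receptor (y axis, %) after thinning every cell to 500 UMIs, in 320 KO and 1427 WT cells; bars are shares, whiskers 95% exact intervals, and red lines the share that free RNA alone would give in the same library. The WT bar of Gpr84 (26.7%) stands well above its line (12.2%), while the C3ar1 bars end near theirs.

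The genotypes were also compared among cells marked by sex-linked transcripts, since each pool held a female and a male. Cells with Xist UMIs and no Y-linked UMI numbered 200 in KO and 565 in WT, and cells with UMIs of Y-linked genes and no Xist UMI 12 and 195. A further 9 and 80 cells held both kinds and 99 and 587 held neither, and these were left out. Some barcodes thus held UMIs of both mice, so the marked groups may not be free of the other mouse. Within the Xist cells, the summed receptor level was 453 CPM in KO and 2323 CPM in WT, a ratio of 0.195 (0.160 to 0.235). Gpr84 was at 72.9 CPM and 887 CPM there, a ratio of 0.0822 (0.0492 to 0.129), and Ptafr at 72.9 CPM and 28.4 CPM, a ratio of 2.57 (1.32 to 4.93). The 12 Y-marked cells of KO held 6 receptor UMIs in all, too few for single receptors.

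Within WT, the Xist cells and the Y-marked cells differed in some receptors. Gpr84 was 1.53 times as high in the Xist cells (1.30 to 1.81), at 887 CPM (823 to 954) against 579 CPM (497 to 671). Fpr1 was 2.90 times as high (1.38 to 7.01), at 75.3 CPM against 26.0 CPM, and Hcar2 1.78 times (1.03 to 3.27), at 92.6 CPM against 52.0 CPM. C3ar1 (1.10 times, 0.940 to 1.29) and C5ar1 (1.14 times, 0.925 to 1.42) had intervals that held 1. Saa3, an acute phase transcript, was 1.56 times as high in the Xist cells (1.45 to 1.68). With 1 mouse of each sex, sex cannot be told apart from mouse.

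**Figure D3:**
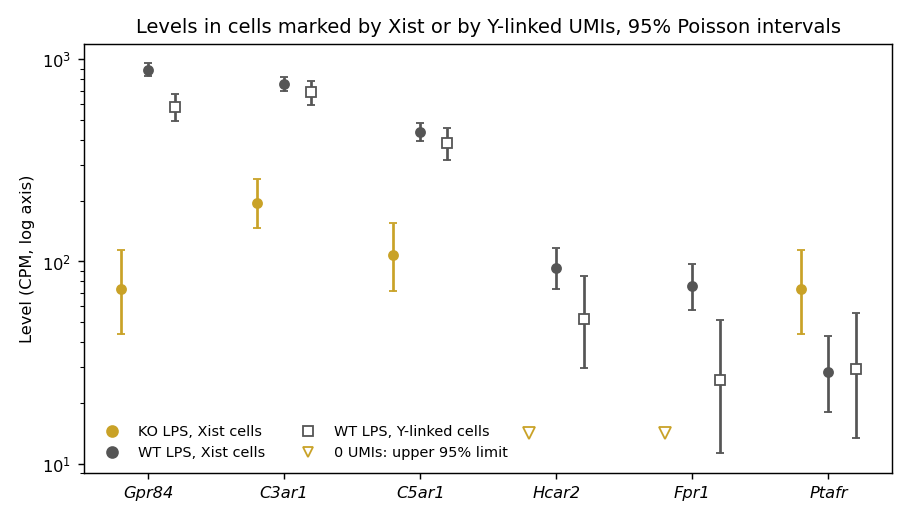
Level of 6 receptors (y axis, CPM on a log axis) in KO cells with Xist UMIs, WT cells with Xist UMIs and WT cells with Y-linked UMIs; points are levels, bars 95% Poisson intervals and triangles the upper 95% limit where no UMI was found. The Gpr84 level of WT is 887 CPM in Xist cells and 579 CPM in Y-linked cells, both above the 72.9 CPM of KO Xist cells.

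Saa3 encodes serum amyloid A3, an acute phase protein that macrophages make under LPS. Among cells it was found in WT only, with 0 UMIs in KO cells, 6 in other KO barcodes and 8367 in WT cells (4207 CPM). Against a floor of 3 counts in KO, its level was at least 535-fold lower there. The question was whether the receptors of WT sat in the cells with Saa3. At 500 UMIs, 434 of 1427 cells (30.4%) held Saa3. Droplets of 500 UMIs drawn from free RNA alone would hold at least 1 Saa3 UMI in 48.3% of cases, and 0.659 UMIs on average. The share seen in cells was lower than 48.3%, so cells held less free RNA of Saa3 than such droplets would. A cell with 1 or 2 Saa3 UMIs may still hold them from free RNA alone, and how many such cells did was not tested. The 205 cells with at least 3 Saa3 UMIs, and single cells with up to 72, show that the transcript was concentrated in part of the cells.

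Gpr84 was found in 119 of the 434 cells with Saa3 (27.4%, 23.3 to 31.9) and in 262 of the 993 cells without it (26.4%, 23.7 to 29.2). The difference of 1.03 percentage points had an interval of -4.00 to 6.25 and was not larger than counting error. In cells with at least 3 Saa3 UMIs the Gpr84 share was 31.7% (25.4 to 38.6). The comparison moved with the depth and with the cells chosen. Without thinning, Gpr84 was in 49.6% of cells with Saa3 and 42.9% of those without, 6.68 points higher, but the former cells were deeper, with a median of 1267 UMIs against 969.5. At 1000 UMIs per cell, the shares were 40.8% and 44.8%, a difference of -4.06 points (-11.3 to 3.29), but only the 770 cells of that depth entered, and in these cells thinned to 500 UMIs the difference was already -3.84 points.

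The complement receptors had like shares in cells with and without Saa3. C3ar1 was in 31.1% of cells with Saa3 and 29.2% of cells without, a difference of 1.90 points (-3.33 to 7.28). C5ar1 was in 16.8% and 16.3%, a difference of 0.506 points (-3.68 to 4.97). Hcar2 was in 13 of 434 and 40 of 993 cells, a difference of -1.03 points (-3.02 to 1.33).

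By share, 2 of the 8 receptors, Fpr1 and Ptafr, were at least 1.5 times as frequent in cells with Saa3, but which receptors passed depended on the setting. Among the 1922 genes found in at least 5% of WT cells, 1.93% were, but only Gpr84, C5ar1 and C3ar1 are in at least 5% of cells and none of these 3 reached 1.5 times. Fpr1 was in 16 of 434 cells with Saa3 (3.69%) and 15 of 993 without (1.51%), a difference of 2.18 points (0.336 to 4.50). Another random thinning gave 3.21% and 1.92%, a difference of 1.29 points (-0.498 to 3.54), and thinning to 1000 UMIs gave 7.57% and 2.79%, a difference of 4.78 points (1.45 to 8.57). Without cells that held any neutrophil or monocyte marker UMI, Fpr1 was the receptor that reached 1.5 times, and without only those with a marker that microglia lack, Fpr2 did and Fpr1 did not, each after thinning anew. Ptafr was in 2.30% and 1.41%, a difference of 0.894 points (-0.628 to 2.89). It fell under 1.5 times under another random thinning (1.61% and 1.41%), without thinning (4.12% and 3.32%), without the deepest 5% of cells and without either set of marker-positive cells, and Fpr2 passed in its place in the first 3 of these.

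The cells were then split by their Saa3 UMIs into 993 cells with 0, 229 with 1 or 2, 122 with 3 to 9 and 83 with 10 or more. The Fpr1 share was 1.51%, 1.31%, 4.92% and 8.43% (3.46 to 16.6) in this order, from 15, 3, 6 and 7 cells. The Gpr84 share was 26.4%, 23.6%, 30.3% and 33.7% (23.7 to 44.9), and neighbouring classes overlapped in their intervals. C5ar1 was between 13.1% and 18.8% in all 4 classes with no order. Microglia markers were at 18959 CPM in cells with no Saa3 and at 16265 CPM in those with 10 or more.

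**Figure D4:**
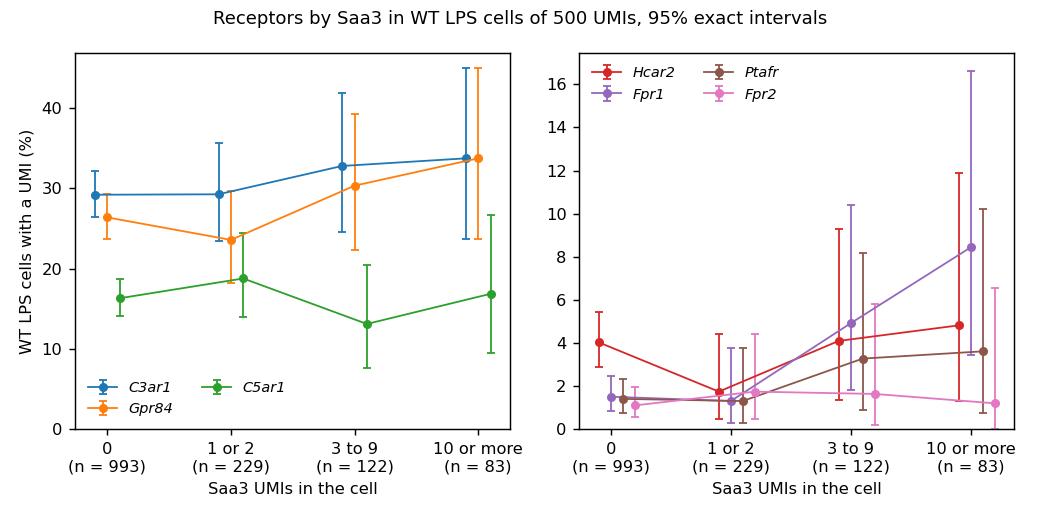
Share of WT cells with a UMI of each receptor (y axes, %, on different scales) by the number of Saa3 UMIs in the cell (x axis), all cells thinned to 500 UMIs; points are shares and bars 95% exact intervals. Gpr84, C3ar1 and C5ar1 overlap across the classes, and Fpr1 reaches 8.43% in the 83 cells with 10 or more Saa3 UMIs against 1.51% in the 993 cells with none.

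Among the receptors themselves, Gpr84 and C3ar1 were found in the same WT cell 142 times, where 113 would follow if they were unrelated. C3ar1 was in 37.3% of the 381 cells with Gpr84 and 27.1% of the others. Gpr84 and C5ar1 met in 68 cells, with 62.7 if unrelated, and C5ar1 and C3ar1 in 76, which is 1.09 times the number if unrelated. Fpr1 and Fpr2 met in 2 cells, with 0.391 if unrelated. Over the 1427 thinned cells, the phi coefficient with Gpr84, a correlation of presence and absence within 1 library, was 0.099 for C3ar1, 0.022 for C5ar1, -0.025 for Fpr1 and 0.011 for Saa3, and its median over 1920 genes was 0.0014.

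By that coefficient, the 5 genes most like Gpr84 in WT were Ctsc, Cebpb, B2m, Ccl12 and Nfkbia, among genes found in at least 5% of cells. Ctsc, the protease cathepsin C, was in 57.0% of cells with Gpr84 and 39.9% of the others (phi 0.152). Cebpb, a transcription factor of inflamed macrophages, was in 33.1% and 19.8% (phi 0.139). B2m, the light chain of class I histocompatibility molecules, was in 87.4% and 74.8% (phi 0.135), and the chemokine Ccl12 in 43.8% and 29.4% (phi 0.135). Nfkbia, the inhibitor of NF-kappaB, was in 48.3% and 34.7% (phi 0.124). All of these coefficients are weak. C3ar1 ranked 11th of the 1920 genes, with Saa3 at rank 727.

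The cells with Gpr84 were set beside the others by their marker levels. The microglia markers summed to 20047 CPM in the 381 thinned WT cells with Gpr84 and 17740 CPM in the other 1046, a ratio of 1.13 (1.09 to 1.17), and the homeostatic microglial receptors to 6462 CPM and 5813 CPM, a ratio of 1.11 (1.04 to 1.19). The summed neutrophil markers, Csf3r included, were at 383 CPM and 268 CPM, a ratio of 1.43 (1.06 to 1.91), the monocyte markers at 36.7 CPM and 11.5 CPM, a ratio of 3.20 (0.922 to 11.5), and 5 of the 381 cells held S100a8 or S100a9. In the 31 cells with Fpr1, microglia markers were at 14774 CPM (12922 to 16817), below the 18356 CPM (18043 to 18673) of all WT cells.

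Upstream of the receptors stand the enzymes and regulators of their ligands, of which 11 of 13 were in the matrices and 6 had at least 20 UMIs. At least 2-fold lower levels in KO were seen for 3 of the 6 and 2-fold higher ones for none. Of all genes, 17.1% and 12.9% were that low and that high. The median log2 ratio was -1.29, or -0.59 with Pafah2, at 0 UMIs in KO, at its bound. The 3 lower ones, Pla2g7, Cfp and Pafah2, had at most 2 UMIs each in KO and passed 20 UMIs through WT only. The ratio of Cfp was 0.201 (0.00489 to 1.22). Against the floor of 3 counts, Pafah2 was at least 1.28-fold lower. A 2-fold difference was thus not shown for Cfp or Pafah2. Summed, the 11 genes were at 1702 CPM in KO and 1547 CPM in WT. Pla2g7, which degrades platelet-activating factor, had 2 UMIs in KO (5.25 CPM) and 63 in WT (31.7 CPM), a ratio of 0.166 (0.0196 to 0.624). Pla2g4a, the cytosolic phospholipase that frees its precursor, was at 126 CPM and 226 CPM, a ratio of 0.558 (0.405 to 0.752). Lpcat2, which makes platelet-activating factor in inflammatory cells, was at 761 CPM and 642 CPM, a ratio of 1.18 (1.04 to 1.35).

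Downstream, the G protein signalling list of subunits, arrestins, receptor kinases and regulators had 25 of 27 genes with at least 20 UMIs. None was at most 0.5 times as high in KO and 6 were at least 2-fold higher, beside 17.1% and 12.9% of all genes, with a median log2 ratio of 0.47. Rgs2 and Rgs10, which speed up GTP hydrolysis by G proteins, were at 1222 CPM and 799.9 CPM in KO against 372 CPM and 263 CPM in WT, 3.29-fold (2.92 to 3.70) and 3.04-fold (2.63 to 3.50) higher. At the other end, Grk6, a receptor kinase, was at 18.4 CPM and 31.7 CPM (ratio 0.580, 0.224 to 1.27), and Gnb2, a beta subunit, at 102 CPM and 158 CPM (ratio 0.646, 0.451 to 0.903).

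Other receptors of the same superfamily did not share 1 direction. Of the other immune receptors, 19 of 24 were in the matrices and 10 had at least 20 UMIs, of which 5 were at most 0.5 times as high in KO and 1 at least 2-fold higher (17.1% and 12.9% of all genes). The median log2 ratio was -1.03 (-0.99 with Ptger4, at 0 UMIs in KO, at its bound). The 5 lower ones, Gpr65, Ccr1, Gpr18, Ptger4 and Cnr2, had at most 9 UMIs each in KO and passed 20 UMIs through WT only. The ratio of Cnr2 was 0.261 (0.00629 to 1.63). The higher one, Ccr2, had 8 UMIs in KO and 15 in WT, a ratio of 2.78 (1.02 to 6.99). Gpr65, a proton-sensing receptor, was at 10.5 CPM in KO and 238 CPM in WT, 22.7-fold lower (8.81 to 83.7). The chemokine receptor Ccr1 was at 23.6 CPM and 55.3 CPM, a ratio of 0.427 (0.190 to 0.840). C5ar2, the second receptor of C5a, was at 39.3 CPM and 29.7 CPM, a ratio of 1.33 (0.699 to 2.37).

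Receptors of homeostatic microglia formed the last list. Of 14 such genes 13 had at least 20 UMIs, none was at most 0.5 times as high in KO and 6 were at least 2-fold higher (17.1% and 12.9% of all genes), with a median log2 ratio of 0.77. P2ry12, the ADP receptor of resting microglia, was at 3837 CPM in KO and 406 CPM in WT, 9.46-fold higher (8.67 to 10.3). Gpr34, a lysophosphatidylserine receptor, was at 1639 CPM and 204 CPM, 8.05-fold higher (7.09 to 9.14). Adgre1, the F4/80 antigen, was at 94.4 CPM and 166 CPM, a ratio of 0.567 (0.391 to 0.802), and the UDP receptor P2ry6 at 94.4 CPM and 128 CPM, a ratio of 0.736 (0.504 to 1.05). In KO the 14 homeostatic receptors summed to 14610 CPM against 454 CPM for the 8 inflammatory ones, and in WT to 6052 CPM against 2104 CPM.

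**Figure D5:**
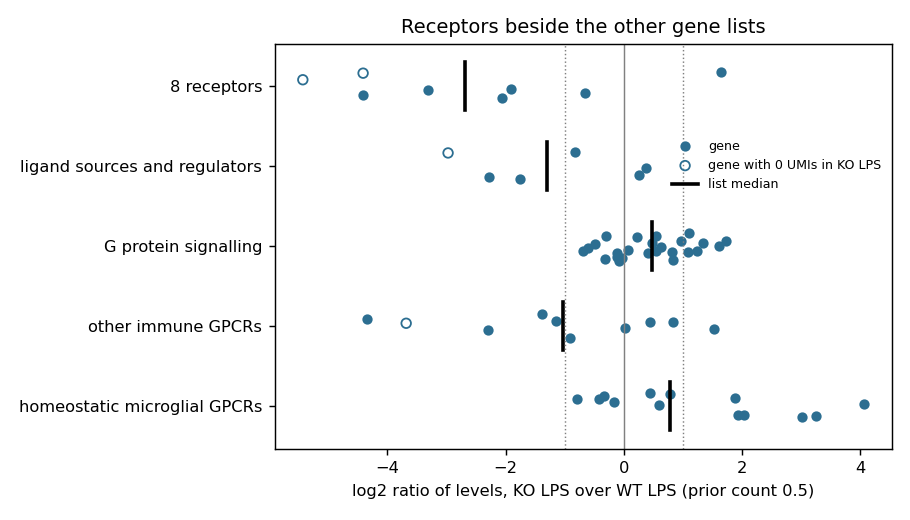
log2 ratio of the levels in KO over WT (x axis, prior count 0.5) for genes with at least 20 UMIs, in 5 lists; each point is a gene, open where KO had 0 UMIs, black bars are list medians and dotted lines mark 2-fold. The 8 receptors have a median of -2.69 with Ptafr alone above 0, and the homeostatic receptors a median of 0.77.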

How the data were processed

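For each library the authors deposited a matrix of unnormalised UMI counts, with genes in rows and 9999 barcodes in columns and no cell filter. The submitters' processing notes name bcl2fastq 2.0, STAR, mm9 and mm10 without saying which build the counts used. Whether counting used the strand is not given in the sources used here. Missing genes were read as 0. The KO matrix held 684738 UMIs and the WT matrix 3063795. The study called cells with DropletUtils and discarded those with less than 100 genes. Here cells were barcodes with at least 500 UMIs and 100 genes, which left fewer cells than the study kept, and doublets were left in.

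UMIs were summed over cells and scaled to 1e6 UMIs (CPM). Levels have exact Poisson intervals, ratios of levels have conditional binomial ones, and shares of cells have Clopper-Pearson ones, all at 95%. With 1 library per genotype no test was made. Log2 ratios used a prior count of 0.5, and a gene at 0 UMIs got a floor of 3 counts per library. Calculations used Python 3.11.15 with scipy 1.17.1, numpy 2.4.6, matplotlib 3.10.9 and pandas 2.3.3 and were tested on simulated data.

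The receptors and gene lists were chosen with earlier results of these data known. Named genes were the 8 receptors, Park7, Saa3, the 2 highest and 2 lowest ratios of each list where a gene had 50 UMIs or more, and the 5 genes with the highest phi coefficient with Gpr84. Cfp, Pafah2, Gpr18, Ptger4, Cnr2, Ccr2, Ttr and the other single marker genes were named after their values were seen. Older symbols were matched through a RefSeq table (1 receptor and 6 genes of the other receptor and signalling lists). C3 and Ccl19 were not analysed here, and not every gene that the rule names is reported here. Alternatives covered cell thresholds, thinning depth, scaling, ambient RNA, sex-linked cells, marker-positive cells and the deepest cells.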

Additional observations from a re-analysis of the deposited data

Results flagged for a closer look

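The barcodes not called as cells, which as a whole set the report does not use for Ptafr, held Ptafr at 69.2 CPM (42.8 to 106, 21 UMIs) in KO and 12.1 CPM (6.44 to 20.7, 13 UMIs) in WT. Of the 21 UMIs of KO, 16 lay in the barcodes with 100 UMIs or fewer that gave the free RNA level of the report. The difference in direction seen in cells was thus present outside them as well, 5.72-fold in size. It was not tested, and the part of free RNA in the level of Ptafr in cells was not tested either.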

How the results depend on the processing

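No paired analysis was possible because each genotype has 1 library, and no replicate could be left out for the same reason. The summed log2 ratio of the 8 receptors stayed between -2.37 and -2.10 over 9 alternative settings, and 6 or 7 receptors were at most 0.5 times as high in KO, leaving aside the Y-marked cells, where a count of 0 passes whatever the level. With all 15846 genes that had at least 1 UMI, 30.3% were that low, against 17.1% with at least 20 UMIs. The difference in the share of cells with a receptor UMI moved to -43.7 points in cells with at least 1000 UMIs and to -46.6 points when thinned to 1000 UMIs. The difference in Gpr84 share between cells with and without Saa3 moved to -4.06 points at 1000 UMIs and to 6.68 points without thinning. The number of receptors more frequent in Saa3 cells was 1, Fpr1, without cells holding neutrophil or monocyte marker UMIs. It was also 1, but Fpr2, in an alternative chosen after seeing the data that left out cells by markers which microglia lack. It was 3 at 1000 UMIs. The cause of these moves was not tested. The 12 Y-marked cells of KO held 0 UMIs of Gpr84, C5ar1, Fpr1, Fpr2, Hcar2 and Ccrl2, 2 of Ptafr and 4 of C3ar1, so no log2 ratio of a single receptor is read from them. In the other settings the log2 ratios kept their sign except for Ccrl2, which ranged from -1.23 to 0.14, the latter without cells holding neutrophil or monocyte marker UMIs, and which is the seventh receptor above. Where a receptor had 0 UMIs in KO, its log2 ratio rests on the prior count and its size is not read. The depth of KO limits what can be said of receptors under 7.87 CPM, its floor.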
